A study of Mus musculus with 8 samples.

Results

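The genes of MHC class I molecules and of the machinery that loads peptides onto them were followed in the pancreatic lymph node of mice without Deaf1, a transcription factor. The members were 10 genes chosen by name: the classical heavy chains H2-K1 and H2-D1, the Qa-type heavy chains H2-Q7, H2-Q9, H2-Q10 and H2-T23, the light chain B2m, and the loading factors Tap1, Tap2 and Tapbp. All non-control probes carrying these names were taken, 20 of the 41174 probes of the array, which carry 27745 gene names in all. All 20 passed the filter on dim probes, as did 27464 of the array's probes.

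Each of 8 two-colour arrays compared 1 Deaf1 knockout mouse, labelled with Cy5, with pooled age-matched wild-type littermates, labelled with Cy3, all of strain BALB/c. At 4 weeks of age 2 arrays used pools of 2 mice. At 12 and 30 weeks 3 arrays per age used pools of 3. The labels call the arrays of an age biological replicates, do not say whether these arrays shared their pool, and give neither the sex of the mice nor the part of Deaf1 that was deleted. Knockout RNA was always in the red channel and wild-type mice were never hybridised singly, so dye bias of a probe is part of every ratio and cannot be told apart from genotype, and the spread between wild-type mice enters no test.

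A class I molecule is a heavy chain that pairs with beta-2 microglobulin, the product of B2m, and shows a short peptide at the cell surface. Peptides made in the cytosol are pumped into the endoplasmic reticulum by the transporter of Tap1 and Tap2, and tapasin, the product of Tapbp, bridges that transporter to empty class I molecules. H2-K1 and H2-D1 present peptides to CD8 T cells, H2-Q7 and H2-Q9 encode Qa-2 antigens, H2-T23 encodes Qa-1, a ligand of NK receptors, and H2-Q10 encodes a secreted molecule made mainly by liver. Lymphocytes express class I genes strongly, and interferons raise heavy chains, light chain and transporter.

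The probes are 60-base oligonucleotides, and the sequences of the heavy-chain probes are shown because these genes resemble each other. Of the 190 pairs of member probes, 4 shared a run of at least 12 bases and 3 of at least 20. In the first 4 lines below, capitals mark the run shared by the H2-Q7 and H2-T23 probes and that shared by an H2-K1 and an H2-Q10 probe; the H2-Q7 probe is shown up to its stop codon. The last 3 lines give the other coding probe of H2-K1 and those of the peptide transporter.
H2-Q7 A_51_P262079: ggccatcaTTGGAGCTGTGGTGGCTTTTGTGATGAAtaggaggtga
H2-T23 A_51_P237754: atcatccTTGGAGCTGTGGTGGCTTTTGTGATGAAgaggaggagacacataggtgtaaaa
H2-K1 A_52_P50496: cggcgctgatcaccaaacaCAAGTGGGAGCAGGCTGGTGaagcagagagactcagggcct
H2-Q10 A_52_P428354: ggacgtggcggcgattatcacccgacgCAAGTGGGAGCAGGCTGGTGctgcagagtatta
H2-K1 A_52_P474242: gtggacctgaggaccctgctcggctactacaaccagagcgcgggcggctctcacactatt
Tap1 A_51_P100327: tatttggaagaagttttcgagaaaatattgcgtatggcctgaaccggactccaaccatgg
Tap2 A_52_P86176: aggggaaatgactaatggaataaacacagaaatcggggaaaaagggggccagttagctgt

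The Q7 and T23 run was 28 bases long and the K1 and Q10 run 20 bases. A further pair, both at the 3′ end of H2-K1 (A_51_P190499 and A_51_P198434), shared the 25 bases TGACCTAGGGCTGATTTCTTGTTAA. The H2-Q10 probe A_51_P496997 is annotated in the files to H2-Q10, H2-D1, H2-Q1 and H2-Q6, and the H2-D1 probe A_52_P313279 to H2-D1 and H2-Q2, so each can carry signal of several genes. The single H2-Q9 probe lies at chr17:35081885-35081944 (mm8), inside the span of the H2-Q10 probes. Its position thus points to H2-Q10, and the annotation gives it no RefSeq gene. It is called H2-Q9 by the name in the files, and which of these genes it measures was not tested. BALB/c mice carry the H2-d haplotype. The strain behind each probe's sequence is not given in the sources used here, and the match of the probes to BALB/c alleles was not tested.

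The promoters of H2-K1, H2-D1 and H2-Q7 are shown because they are nearly alike; they were chosen after the promoters had been read. H2-Q10, whose promoter is also held and which had 2 probes that fell at 30 weeks, carries 1 of the 4 runs marked here. RefSeq (GRCm38.p6, strain C57BL/6J) held a promoter for 8 of the 10 member genes, and the 250 bases before the start were used. In the lines below capitals mark the 4 runs of at least 12 bases that all 3 windows share. The stretches are on the strand of the gene and lie at chr17:34000410-34000521 (minus), chr17:35262860-35262971 and chr17:35438959-35439069.
H2-K1 promoter: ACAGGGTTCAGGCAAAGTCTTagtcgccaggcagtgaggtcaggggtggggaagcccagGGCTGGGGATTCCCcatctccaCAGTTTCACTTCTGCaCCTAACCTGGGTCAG
H2-D1 promoter: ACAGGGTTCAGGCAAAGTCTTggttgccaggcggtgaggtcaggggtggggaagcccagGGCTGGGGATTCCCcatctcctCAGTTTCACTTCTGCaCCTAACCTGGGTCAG
H2-Q7 promoter: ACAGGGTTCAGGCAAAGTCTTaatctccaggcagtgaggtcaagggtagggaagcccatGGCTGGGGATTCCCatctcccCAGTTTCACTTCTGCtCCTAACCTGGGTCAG

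The run GGCTGGGGATTCCC, which ends in a kappa B element, stood on either strand in 0.0152% of all 32851 promoter windows of that length, beyond the members in H2-Q6. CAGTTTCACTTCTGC, which spans an interferon-type element, stood in 0.0213%, among them also H2-Q10. Neither stood in the promoter of a loading gene that the table holds. The runs were found in these promoters and then counted, and a match describes the sequence only.

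The arrays differed in ways that touch the results. Of Deaf1 itself, a probe well above background on all arrays (A_52_P456977) gave ratios from −0.22 to 0.35, and a further one (A_51_P275658) gave −0.74, 3.11 and −0.62 at 30 weeks, so the probes do not show the genotype. Replicate 2 of 12 weeks stood apart: its ratio of Xist was 5.32 and that of Ddx3y −3.89, differences of the kind seen between the sexes, and across probes it correlated with replicates 1 and 3 at only 0.18 and 0.08, while these 2 correlated at 0.58 (a description). In replicate 2 of 30 weeks 15 measured genes of pancreatic acinar cells had a median ratio of 3.98, against −4.09 and −4.50 in replicates 1 and 3. The 4-week arrays lay on a slide and scanner of their own, the 12-week arrays shared a slide with replicate 1 of 30 weeks, and replicates 2 and 3 of 30 weeks lay on the last slide. Lymph node markers were present, with at least 11 of 12 measured genes well above background in each channel. On every array ratios were lower at higher GC content of the probe (r from −0.12 to −0.32 per array, across probes, a description).

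**Figure D1:**
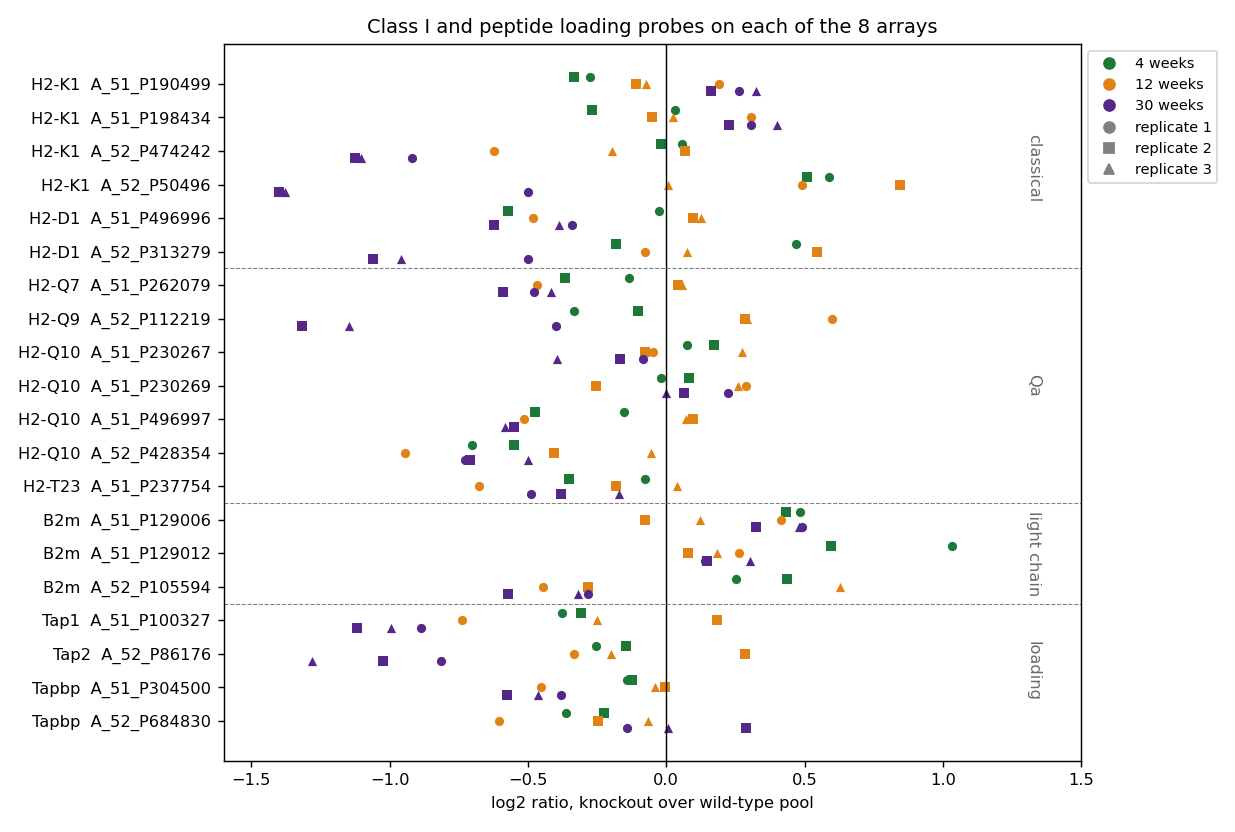
Log2 ratio of knockout over wild-type pool (x axis) for each of the 20 member probes (rows, grouped by role) on each of the 8 arrays; colours give the age and symbols the replicate. At 30 weeks the Tap1 and Tap2 ratios lie between −0.81 and −1.28 and those of the 3′ H2-K1 probes between 0.16 and 0.40; values are loess-normalised, and with arrays centred on their median 14 of the 32 called values change sign.

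At 30 weeks most class I and loading probes were lower in knockout nodes with loess normalisation, but not with arrays centred on their median. Of the 20 member probes 11 fell and 3 rose, where 40.1% of all tested probes were called, 20.6% lower and 19.5% higher (limma, Benjamini-Hochberg adjusted p under 0.05). The median ratio of the members was −0.46 and that of all probes 0.01. Falls were called for 4 of 6 classical probes, 4 of 7 Qa probes and 3 of 4 loading probes. With arrays centred on their median 3 of the 20 were called lower (H2-K1 A_52_P474242, Tap1 and Tap2). With that centring 4 were called higher (H2-K1 A_51_P198434 and A_51_P190499, B2m A_51_P129006 and A_51_P129012). In that fit 4.38% of all probes were called lower and 21.7% higher, and their median was 0.11. The measurements are of bulk tissue, where fewer cells of a type and less RNA per cell cannot be told apart.

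H2-K1 gave opposite answers with its coding and its 3′ probes. The coding probe A_52_P474242 (chr17:33609987-33610233, mm8, GC 61.7%) had ratios of −0.92, −1.13 and −1.10 at 30 weeks, −0.62, 0.07 and −0.20 at 12 weeks, and 0.06 and −0.02 at 4 weeks. All 30-week values lay below all others. It fell by 1.05 ± 0.12 (SE of the fit, n = 3, limma adjusted p = 0.000677), a 2.07-fold lower signal.

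The coding probe A_52_P50496 (chr17:33609797-33609856, GC 60%) read −0.50, −1.40 and −1.38 at 30 weeks, where replicate 1 was the mildest. At 12 weeks it read 0.49, 0.84 and 0.01, and at 4 weeks 0.59 and 0.51, so no array below 30 weeks was negative. The fall at 30 weeks was 1.09 ± 0.19 (n = 3, limma adjusted p = 0.00288). With arrays centred on their median the ratio was −0.58 and no longer called (adjusted p = 0.134).

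At the 3′ end of H2-K1, A_51_P198434 (chr17:33606564-33606623, GC 35%, 10 spots per array) read 0.31, 0.23 and 0.40 at 30 weeks, 0.31, −0.05 and 0.03 at 12 weeks, and 0.03 and −0.27 at 4 weeks. Its neighbour A_51_P190499 (chr17:33606572-33606626, GC 35%) read 0.26, 0.16 and 0.32, then 0.19, −0.11 and −0.07, then −0.28 and −0.33. Both 3′ probes were thus positive on all 3 arrays of 30 weeks, where both coding probes were negative. The 3′ probes cover almost the same positions, so they are not independent readings, and the annotation gives A_51_P190499 no RefSeq gene. The rises were 0.31 ± 0.09 (n = 3, limma adjusted p = 0.0229) and 0.25 ± 0.07 (adjusted p = 0.0261). The spots of A_51_P198434 varied within an array with an SD of 0.030 to 0.166.

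The calls at the 3′ end were lost when base composition was taken out and when single arrays were left out. With arrays centred on their median both rises were called, at 1.04 and 0.92. In that fit 21.7% of all probes were called higher and their median was 0.11. With the GC trend of each array removed they were 0.16 (adjusted p = 0.108) and 0.10 (adjusted p = 0.226), and neither was called. With the scanner's own log ratio they were 0.21 (adjusted p = 0.169) and 0.20 (adjusted p = 0.166). Without replicate 1 of 30 weeks they were 0.31 (adjusted p = 0.0928) and 0.24 (adjusted p = 0.113), and without replicate 3 they were 0.27 (adjusted p = 0.133) and 0.21 (adjusted p = 0.15). The falls of the coding probes were 1.02 and 1.03 on the log2 scale after the GC trend was removed, and both were called.

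**Figure D2:**
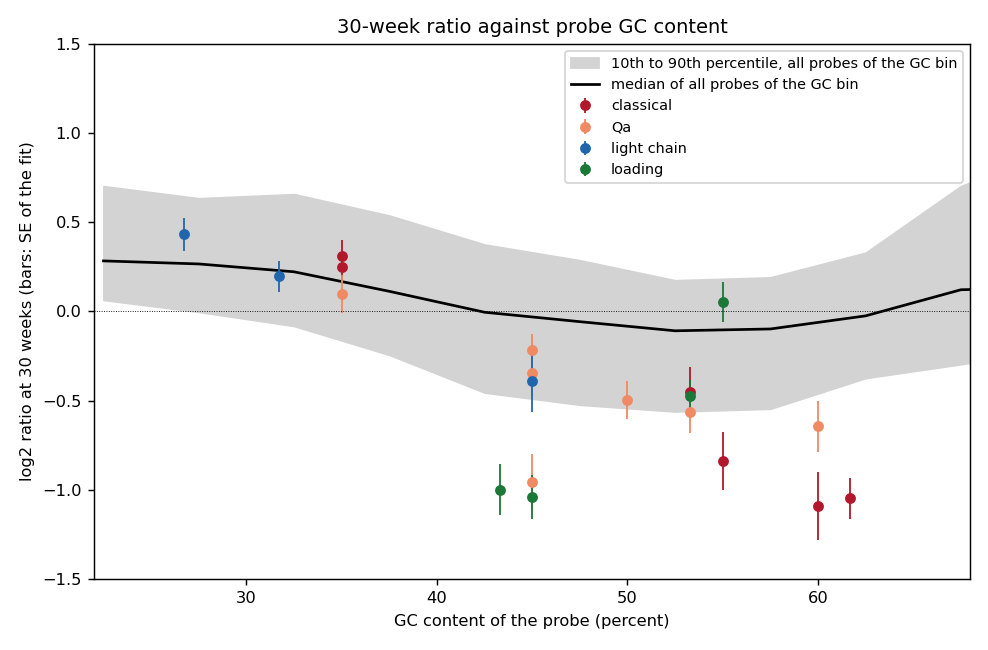
Fitted log2 ratio at 30 weeks (y axis, bars are the SE of the fit) of the 20 member probes against the GC content of the probe (x axis); the line is the median and the band the 10th to 90th percentile of all tested probes in GC bins of equal width. The 3 member probes called higher lie at GC 26.7% and 35%, where the line is above 0, and the H2-K1 coding probes at 60% and 61.7% lie below the band.

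The channels were also read separately. In A_52_P50496 the wild-type log2 signal was 10.78 and 11.18 at 4 weeks, 12.99, 12.94 and 12.95 at 12 weeks, and 13.99, 13.92 and 14.00 at 30 weeks. The knockout signal was 11.37 and 11.69, then 13.48, 13.79 and 12.96, then 13.50, 12.52 and 12.63. The mean at 30 minus that at 12 weeks was 1.01 in the pool and −0.53 in the knockouts. At the 3′ probe A_51_P198434 the wild-type mean differed by 0.01 between these ages and the knockout mean was 0.23 higher. Differences of signal between ages were not tested, and age cannot be told apart from the pool and, at 4 weeks, from slide and scanner.

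H2-D1 was lower at 30 weeks by both probes. A_52_P313279 (chr17:34874240-34874299) read −0.50, −1.06 and −0.96 at 30 weeks, −0.08, 0.54 and 0.07 at 12 weeks, and 0.47 and −0.18 at 4 weeks. A_51_P496996 (chr17:34874545-34874777) read −0.34, −0.62 and −0.39, then −0.48, 0.10 and 0.12, then −0.03 and −0.57. The first set the 30-week arrays below all others, while the second overlapped both younger ages.

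The falls of H2-D1 were 0.84 ± 0.16 (n = 3, limma adjusted p = 0.00411) and 0.45 ± 0.14 (adjusted p = 0.0307). The smaller was not called without replicate 1 (−0.51, adjusted p = 0.0766), replicate 2 (−0.36, adjusted p = 0.145) or replicate 3 of 30 weeks (−0.48, adjusted p = 0.0926), nor with the GC trend removed (−0.32, adjusted p = 0.101). With arrays centred on their median the larger was −0.17 (adjusted p = 0.559) and the smaller turned to 0.21.

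**Figure D3:**
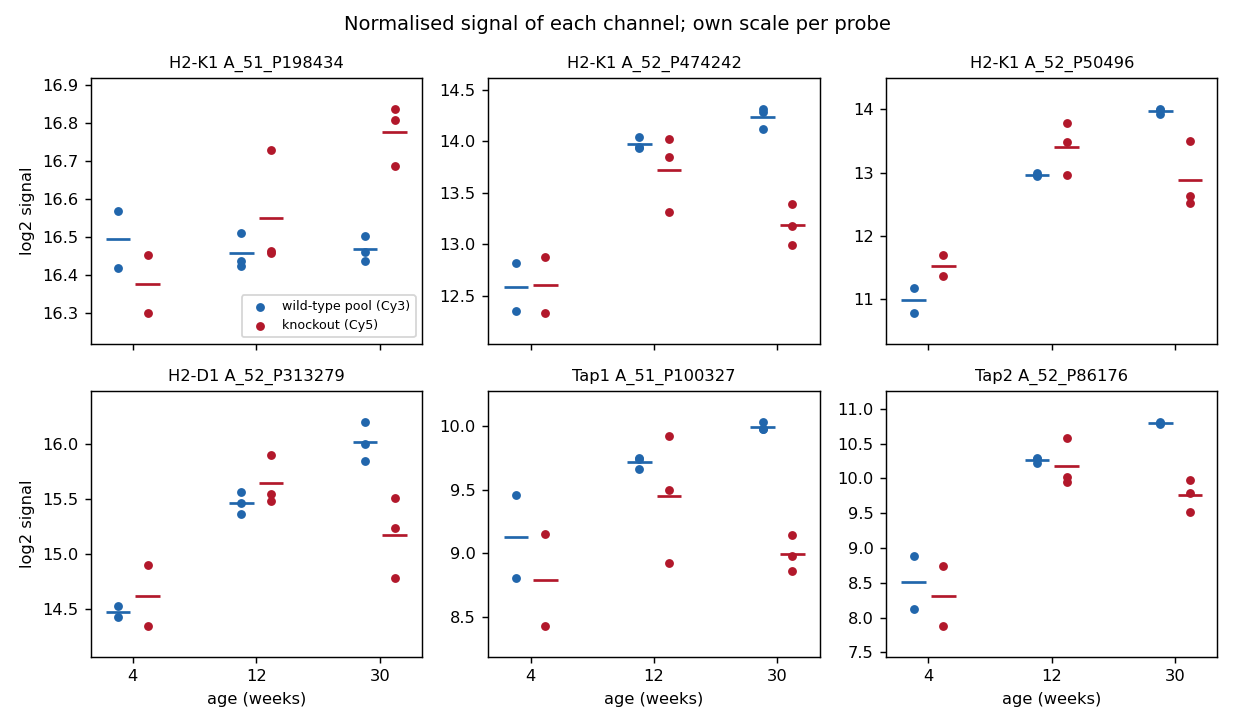
Log2 signal (y axis, own scale per probe) of the wild-type pool and the knockout on each array at 4, 12 and 30 weeks (x axis) for 6 probes of H2-K1, H2-D1, Tap1 and Tap2; points are arrays and bars the mean of an age. At 30 weeks the wild-type Tap2 signal is 10.79 to 10.81 and the knockout signal 9.52 to 9.97, while for the 3′ H2-K1 probe the knockout lies above the pool.

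Among the Qa genes, H2-Q7 (10 spots) read −0.48, −0.59 and −0.42 at 30 weeks, −0.47, 0.04 and 0.06 at 12 weeks, and −0.13 and −0.37 at 4 weeks. It fell by 0.50 ± 0.11 at 30 weeks (n = 3, limma adjusted p = 0.00665). H2-T23, whose probe shares 28 bases with that of H2-Q7, read −0.49, −0.38 and −0.17 at 30 weeks, a mean of −0.35 ± 0.13 that was not called (adjusted p = 0.0602). It was negative on 7 of 8 arrays. Its 30-week ratio gained a call under 8 of 21 alternatives, among them the scanner's log ratio (−0.43, limma adjusted p = 0.0369). With arrays centred on their median it was 0.335 and not called.

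The H2-Q9 probe read −0.40, −1.32 and −1.15 at 30 weeks, against 0.60, 0.29 and 0.29 at 12 weeks and −0.33 and −0.10 at 4 weeks. All 12-week values were positive and all 30-week values negative. The fall at 30 weeks was 0.96 ± 0.16 (n = 3, limma adjusted p = 0.0022), a 1.94-fold lower signal. With arrays centred on their median it was −0.65 and not called (adjusted p = 0.0687).

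The H2-Q10 probes disagreed among themselves. A_52_P428354 was negative on all 8 arrays, with −0.73, −0.71 and −0.50 at 30 weeks, −0.95, −0.41 and −0.05 at 12 weeks, and −0.70 and −0.55 at 4 weeks. A_51_P496997, the probe annotated to 4 genes, read −0.55, −0.55 and −0.58 at 30 weeks. Their falls at 30 weeks were 0.65 ± 0.14 (n = 3, limma adjusted p = 0.00732) and 0.56 ± 0.12 (adjusted p = 0.00614). Their mean wild-type log2 signal at 30 weeks was 13.56 and 15.92, against 7.69 and 8.98 for A_51_P230267 and A_51_P230269. Whether the falls are those of H2-Q10 or of similar genes was not tested.

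A_51_P230267 and A_51_P230269, the probes nearest to background, ranged from −0.39 to 0.29 over all arrays. After loess and without a slide block they were called at no age. With the slide as a random block A_51_P230267 was called lower at 30 weeks (−0.23, limma adjusted p = 0.0301), where 50% of all probes were called. With the scanner's log ratio A_51_P230267 was 0.76 at 4 weeks and called (adjusted p = 0.0118), against 0.12 with loess. In the pool they exceeded background clearly on 6 and 7 of the 8 arrays, and in the knockouts on 6 and 8. With arrays centred on their median A_52_P428354 was −0.15 at 30 weeks (adjusted p = 0.595), and H2-Q7 and A_51_P496997 turned to 0.16 and 0.11.

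Of the 3 B2m probes, 1 rose at 30 weeks and none fell, where 19.5% of all probes were called higher and 20.6% lower. The 10-spot probe A_51_P129006 (chr2:121844230-121844286, GC 26.7%) read 0.49, 0.32 and 0.48 at 30 weeks, 0.42, −0.08 and 0.12 at 12 weeks, and 0.48 and 0.43 at 4 weeks. It rose by 0.43 ± 0.09 at 30 weeks (n = 3, limma adjusted p = 0.00624). That call was lost with the GC trend removed (0.15, adjusted p = 0.111). With arrays centred on their median the ratio of this probe was 0.99 and still called. Its neighbour A_51_P129012 (chr2:121844106-121844165, GC 31.7%) read 0.14, 0.15 and 0.30 at 30 weeks and was not called (0.20 ± 0.09, adjusted p = 0.108). With that centring the neighbour was 0.84 and called (adjusted p = 0.00438), where 21.7% of all probes were called higher. A_52_P105594 (chr2:121840304-121840363), designed on a cDNA clone, read −0.28, −0.57 and −0.32 and was not called either (−0.39 ± 0.18, limma adjusted p = 0.109). It gained a call as lower under 3 of 20 alternatives, among them only the arrays compared (−0.39, limma adjusted p = 0.00823). A_51_P129012 gained a call as higher under 3 of 21. With arrays centred on their median A_52_P105594 was −0.05 and not called.

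The loading factors gave some of the clearest falls. Tap1 (chr17:33804121-33804180) read −0.89, −1.12 and −0.99 at 30 weeks, −0.74, 0.18 and −0.25 at 12 weeks, and −0.38 and −0.31 at 4 weeks. Tap2 (chr17:33825052-33825639) read −0.81, −1.02 and −1.28, then −0.33, 0.29 and −0.20, then −0.25 and −0.14. For both subunits of the transporter every 30-week array lay below every other array.

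Tap1 fell by 1.00 ± 0.14 at 30 weeks (n = 3, limma adjusted p = 0.00132) and Tap2 by 1.04 ± 0.12 (adjusted p = 0.00081), 2-fold and 2.06-fold lower. With the GC trend removed the ratios were −0.95 and −0.96. In the wild-type channel the Tap2 signal was 8.13 and 8.88 at 4 weeks, 10.28, 10.29 and 10.22 at 12 weeks and 10.79, 10.81 and 10.80 at 30 weeks. The knockout channel read 7.88 and 8.74, then 9.95, 10.58 and 10.02, then 9.97, 9.79 and 9.52, so it lay under the pool on all but replicate 2 of 12 weeks.

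Tapbp was split between its probes. A_51_P304500 (chr17:33539531-33539590) read −0.38, −0.58 and −0.46 at 30 weeks and fell by 0.47 ± 0.09 (n = 3, limma adjusted p = 0.00415), a ratio that turned to 0.03 with arrays centred on their median. A_52_P684830 (chr17:33536605-33536664) read −0.14, 0.29 and 0.00 and was not called (0.05 ± 0.11, adjusted p = 0.748).

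Heavy chains and loading factors were set against each other per array, with the probes of a gene averaged first. The averages of H2-K1, H2-Q10 and Tapbp thus mix probes that disagreed. The H2-Q9 probe counted as a gene of its own, though it lies among the H2-Q10 probes. At 30 weeks the 6 heavy-chain genes had mean ratios of −0.38, −0.67 and −0.54 and the 3 loading genes −0.66, −0.76 and −0.83, with the loading genes lower on each array. The difference was 0.22 ± 0.11 (SD, n = 3) at 30 weeks, 0.20 ± 0.20 (SD, n = 3) at 12 weeks and 0.097 ± 0.18 (SD, n = 2) at 4 weeks. It was not tested and did not exceed its own SD at the younger ages. At 30 weeks a median over genes gave 0.48 and the brightest probe per gene 0.42.

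**Figure D4:**
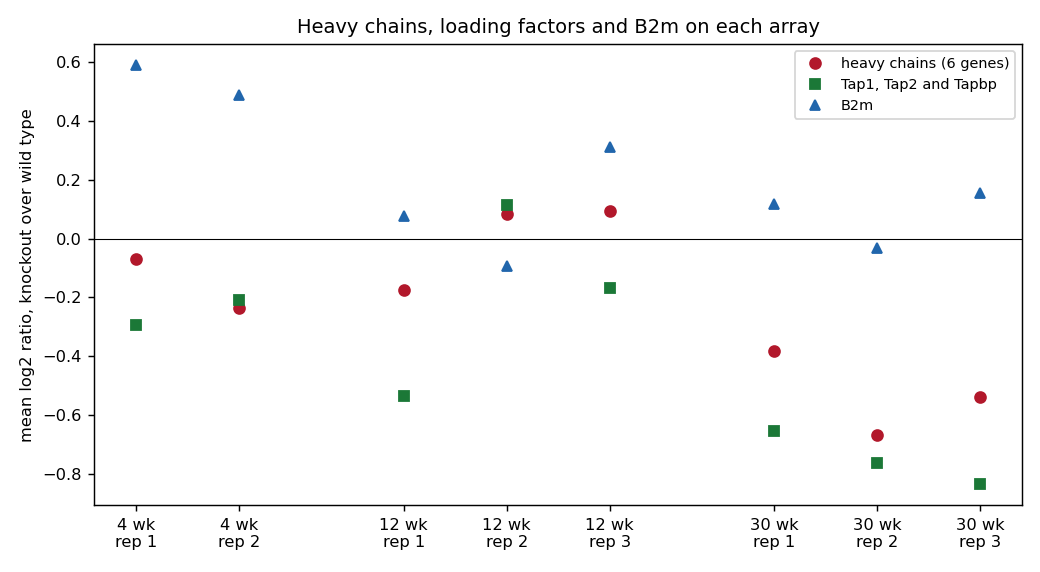
Mean log2 ratio of knockout over wild type (y axis) of the 6 heavy-chain genes, the 3 loading genes and B2m on each of the 8 arrays (x axis), each gene being the mean of its probes. At 30 weeks heavy chains and loading genes lie below 0 on all 3 arrays, whereas B2m reads 0.12, −0.03 and 0.16; with arrays centred on their median the 30-week means become 0.02 for heavy chains and −0.44 for loading genes.

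At 12 weeks none of the 20 member probes was called, where 3.35% of all probes were (limma adjusted p under 0.05). The unadjusted p was under 0.05 for 4 of them and for 26.1% of all probes. The median ratio was −0.06 for the members and 0.02 for all probes. Tap1 shows how replicate 2, whose sex-linked genes set it apart, differed here: it read 0.18 against −0.74 and −0.25. Without that array 2 probes were called, both lower, where that fit called 11% of all probes (with all arrays 1.84% of all probes were called lower and 1.51% higher). These were Tap1 (−0.49, adjusted p = 0.0347) and H2-K1 A_52_P474242 (−0.41, adjusted p = 0.0481). With the slide as a random block 11 were called, 6 lower and 5 higher, where 49.5% of all probes were called.

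At 4 weeks 2 member probes fell and 2 rose, where 5.92% of all probes were called lower and 13.3% higher. The rises were those of B2m: A_51_P129012 read 1.03 and 0.59, a rise of 0.81 ± 0.11 (n = 2, limma adjusted p = 0.002), and A_51_P129006 rose by 0.46 ± 0.11 (adjusted p = 0.0226). With only replicate 2 of 4 weeks kept they were 0.59 (adjusted p = 0.0539) and 0.43 (adjusted p = 0.282), and with only replicate 1 kept A_51_P129006 was 0.49 (adjusted p = 0.0994). The heavy-chain falls were those of H2-Q10 A_52_P428354 (−0.63 ± 0.17, adjusted p = 0.0363) and the 3′ H2-K1 probe A_51_P190499 (−0.31 ± 0.09, adjusted p = 0.0466).

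Of the 8 fits with 1 array less, 6 lost the 4-week call of H2-K1 A_51_P190499 and 4 that of H2-Q10 A_52_P428354. Some of these losses came when an array of another age was left out. Both heavy-chain calls at 4 weeks were lost when either array of that age was left out, with ratios close to those above. The lone array left is then assumed to vary like the other ages, and the share of all probes called at 4 weeks went from 19.2% to 1.9% without replicate 1 and to 13.8% without replicate 2. Without replicate 1 of 4 weeks H2-Q10 A_52_P428354 was −0.55 (adjusted p = 0.398) and H2-K1 A_51_P190499 −0.33 (adjusted p = 0.3). Without replicate 2 they were −0.70 (adjusted p = 0.121) and −0.28 (adjusted p = 0.215). They turned to 0.29 and 0.62 with arrays centred on their median, where the median of all probes was 0.39. At this age the loading genes were not called, with Tap1 at −0.34 ± 0.17 (adjusted p = 0.211) and Tap2 at −0.20 ± 0.15 (adjusted p = 0.411). Tap1 was called when only the 4-week arrays were fitted (adjusted p = 0.0338), and Tapbp A_52_P684830 with the scanner's log ratio (−0.60, adjusted p = 0.0281, against −0.29 with loess).

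Averaged over the 3 ages, 9 member probes were lower and 2 higher, where 43% of all probes were called, 19% lower and 24% higher. H2-Q10 A_52_P428354 (−0.58 ± 0.09, limma adjusted p = 0.00134), Tap1 (−0.54 ± 0.09, adjusted p = 0.00192) and Tap2 (−0.44 ± 0.08, adjusted p = 0.00248) led the falls. Of the other H2-Q10 probes A_51_P496997 was lower (−0.33), and A_51_P230267 and A_51_P230269 were not called (−0.01 and 0.08). The rises were both in B2m, 0.39 ± 0.06 (adjusted p = 0.000934) and 0.35 ± 0.06 (adjusted p = 0.00182). With arrays centred on their median no member was called lower and 15 were called higher, where 7.33% of all probes were called lower and 54.5% higher and the median of all probes was 0.27. The 30-week values enter this mean.

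Between ages the ratio of few members changed. From 12 to 30 weeks 2 probes fell and none rose, where 0.473% of all probes were called lower: H2-K1 A_52_P50496 by 1.54 ± 0.27 (limma adjusted p = 0.0459) and H2-Q9 by 1.35 ± 0.22 (adjusted p = 0.0405). An unadjusted p under 0.05 was reached by 10 of the 20 and by 20.8% of all probes. With the slide as a fixed block, which sets replicate 1 of 30 weeks against the 12-week arrays of its slide, the differences were −0.95 (adjusted p = 0.522) and −0.79 (adjusted p = 0.441), and no probe of the array was called. Leaving out 1 array lost the first call in 7 of 8 fits and the second in 5, and without replicate 1 of 12 weeks the count rose from 2 to 11, of which 9 were lower, while the share of all probes called rose from 0.827% to 14.8%. From 4 to 12 weeks only the ratio of B2m A_51_P129012 changed, by −0.64 ± 0.14 (adjusted p = 0.0362), where 5.6% of all probes were called, 4.57% lower. That call was lost in 5 of the 8 fits with 1 array less.

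Genes around the members were read from lists with 1 brightest probe per gene, in the fit of all probes. At 30 weeks that fit called 20.6% of all probes lower and 19.5% higher. With arrays centred on their median these shares were 4.38% and 21.7%. At 4 weeks they were 5.92% and 13.3%, and with that centring 2.45% and 45.3%. Of 14 measured further class I heavy chains and class I-like genes, 7 fell and 2 rose at 30 weeks, with a median of −0.30; with arrays centred on their median 2 were lower and 2 higher. H2-Bl, a heavy-chain gene (−0.97 ± 0.12, limma adjusted p = 0.000835), Fcgrt, the neonatal Fc receptor (−0.86 ± 0.12, adjusted p = 0.00111), and Hfe, a regulator of iron uptake (−0.50 ± 0.07, adjusted p = 0.00115), were lower. H2-M3, which presents formylated peptides, was higher (0.70 ± 0.07, adjusted p = 0.000582).

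Of 18 other genes of peptide loading and trimming, 8 fell and 5 rose at 30 weeks, with a median of −0.04. Of all probes 20.6% were called lower and 19.5% higher. With centring on the median none was lower and 7 were higher, where 4.38% and 21.7% of all probes were. The chaperone calreticulin, from Calr, fell by 0.77 ± 0.07 (limma adjusted p = 0.000498) and Bcap31, a sorting factor of the endoplasmic reticulum, by 0.61 ± 0.08 (adjusted p = 0.000949). Uggt1, the sensor of misfolded glycoproteins, rose by 0.67 ± 0.08 (adjusted p = 0.000819) and Erap1, which trims peptides, by 0.50 ± 0.07 (adjusted p = 0.00126). Within this list the genes went both ways, unlike Tap1 and Tap2.

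At 4 weeks this list had 6 genes higher and 1 lower (17 and none with that centring, 4 and 1 with the replicate block). Of all probes 13.3% were called higher and 5.92% lower, with that centring 45.3% and 2.45%, and with the replicate block 9.58% and 2.95%. Tpp2, a cytosolic peptidase (1.09 ± 0.13, limma adjusted p = 0.00122), Erap1 (0.89 ± 0.09, adjusted p = 0.000618), the chaperone gene Canx (0.86 ± 0.08, adjusted p = 0.000522) and Pdia3, a thiol oxidoreductase of the loading complex (0.50 ± 0.08, adjusted p = 0.00453), rose. The call of Pdia3 was lost without replicate 1 of 4 weeks (0.40, adjusted p = 0.125).

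Of 21 measured regulators of class I genes, 7 rose and 3 fell at 30 weeks (median 0.16). Of all probes 19.5% were called higher and 20.6% lower. With arrays centred on their median 12 rose and none fell (21.7% and 4.38% of all probes). At 30 weeks the transcription factor genes Nfkb1 (0.83 ± 0.13, limma adjusted p = 0.00189) and Sp1 (0.64 ± 0.09, adjusted p = 0.00131) rose. The interferon receptor chains Ifnar1 (0.53 ± 0.07, adjusted p = 0.00106) and Ifnar2 (0.40 ± 0.07, adjusted p = 0.00274) rose too. At 4 weeks 7 rose and 1 fell, where 13.3% of all probes were called higher and 5.92% lower. With that centring 17 rose and none fell (45.3% and 2.45% of all probes). The kinase gene Jak1 was at 1.13 ± 0.09 (adjusted p = 0.000405) and the receptor gene Ifngr1 at 0.65 ± 0.09 (adjusted p = 0.00257). The call of Ifngr1 was lost without replicate 1 of 4 weeks (0.59, adjusted p = 0.0804).

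The list of receptors taken to bind class I had 12 measured genes. Klrc2 (0.49 ± 0.09, limma adjusted p = 0.0036) and Klra7 (0.57 ± 0.17, adjusted p = 0.0298), both receptors of NK cells, rose at 30 weeks and no other was called. Of all probes 19.5% were called higher and 20.6% lower at that age. The call of Klra7 was lost without replicate 1 (0.29, adjusted p = 0.187) or replicate 3 of that age (0.65, adjusted p = 0.0721). At 4 weeks 2 of the 12 fell and 2 rose, where 5.92% of all probes were called lower and 13.3% higher. At 12 weeks 2 fell and none rose, where 1.84% of all probes were called lower and 1.51% higher. With arrays centred on their median 1 fell and 3 rose at 4 weeks (2.45% and 45.3% of all probes). With that centring none fell and 3 rose at 30 weeks (4.38% and 21.7%). Klra7 (0.71) and Pirb (0.29) rose at 4 weeks, and Klrb1c fell at 4 (−0.34) and 12 weeks (−0.51). Klrb1c is an NK cell receptor for which binding to class I is not established, and it is among the falls counted at both ages. Without replicate 1 of 4 weeks the 4-week ratios of these genes were 0.47, 0.23 and −0.12. Cd8b1, a chain of the CD8 coreceptor, fell by 0.57 ± 0.11 at 4 weeks (adjusted p = 0.00778) and by 0.54 ± 0.09 at 12 weeks (adjusted p = 0.0264), ratios that turned to 0.35 and 0.34 with arrays centred on their median. It was not called at 4 weeks without replicate 1 (−0.54, adjusted p = 0.159), nor at 12 weeks without replicate 1 (−0.48, adjusted p = 0.126), replicate 3 (−0.58, adjusted p = 0.0625) or replicate 1 of 30 weeks (−0.54, adjusted p = 0.0574).

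Of 22 interferon response genes, 12 were lower and 2 higher at 30 weeks, with a median of −0.40. Of all probes 20.6% were called lower and 19.5% higher. With arrays centred on their median 5 were lower and 5 higher (median −0.24), where 4.38% and 21.7% of all probes were. After loess the median ratio of the list was −0.37, −0.41 and −0.49 on the 3 arrays of 30 weeks. Irf7, a regulator of interferon genes, fell by 1.58 ± 0.10 (limma adjusted p = 0.000363), Oas1a by 0.99 ± 0.13 (adjusted p = 0.000964), Isg20 by 0.82 ± 0.11 (adjusted p = 0.00104) and Oas2 by 0.79 ± 0.12 (adjusted p = 0.00171). From 12 to 30 weeks 5 of the 22 fell, among them Irf7 by 1.03 ± 0.15 (adjusted p = 0.0332), where 0.473% of all probes were called lower. None was called with the scanner's log ratio, with centring on the median or with the replicate block, fits that called at most 0.0291% of all probes. The call of Irf7 was lost in 5 of the 8 fits with 1 array less, at −0.99 to −1.12. At 4 weeks Gbp3, Irgm1 and Cxcl10 were higher and Stat2 lower, where 13.3% of all probes were called higher and 5.92% lower. At 12 weeks Cxcl10 was higher (1.03 ± 0.19, limma adjusted p = 0.0329) and Irf7 lower (−0.55 ± 0.10, adjusted p = 0.0357). The calls at 12 weeks were lost in 4 and 5 of the 8 fits with 1 array less.

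Markers of the immune cells of the node were also read at 30 weeks, where 20.6% of all probes were called lower and 19.5% higher. Of 10 macrophage markers 5 were lower and 1 higher (median −0.33), and the log2 of their summed signal was 15.96 to 16.23 in the pools and 15.67 to 15.99 in the knockouts. Of 10 B cell markers 4 were lower and 1 higher (median −0.29), with sums of 15.77 to 15.90 and 15.50 to 15.98. Of 10 dendritic cell markers 2 were lower and 1 higher, with sums of 13.55 to 13.62 and 13.18 to 13.43. With arrays centred on their median none of these 30 markers was lower, where 4.38% of all probes were. All 30 markers were well above background in both channels at 30 weeks. Their part in the class I result was not tested.

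At 4 weeks markers of further cell types were called. At that age 5.92% of all probes were called lower and 13.3% higher, and with arrays centred on their median 2.45% and 45.3%. Of 12 CD8 T and NK cell markers 6 were lower and none higher at 4 weeks (median −0.44; none lower and 1 higher with arrays centred on their median), and 2 were lower and 1 higher at 30 weeks. Of 11 markers of stroma and endothelium 6 were higher and none lower at 4 weeks (median 0.73), with summed signals of 15.37 to 15.41 in the pool and 16.17 to 16.40 in the knockouts. Of 10 B cell markers 4 were higher and none lower at that age. Fat cell markers had a median of −1.23 at 4 weeks, where 2 of 8 were lower. Their part in the rise of B2m was not tested.

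Tap1 and Tap2 at 30 weeks were set beside the acinar signal, whose ratio in replicate 2 was opposite to replicates 1 and 3. The part of acinar tissue in the falls was not tested. In replicate 2 Tap1 read −1.12 and Tap2 −1.02, against −0.89 and −0.81 on replicate 1 and −0.99 and −1.28 on replicate 3. Without that array 13 of 20 member probes were called at 30 weeks, 10 lower and 3 higher, where 14.9% of all probes were called lower and 14.9% higher.

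Among 14291 other genes with values on all 8 arrays, those whose ratios were most like Tap1 were Kars (Pearson's r 0.996 over 8 arrays), Evc (0.995), Exosc2 (0.992), the class I gene H2-T22 (0.991) and Rabggta (0.986). H2-T22 read −0.40 and −0.39 at 4 weeks, −0.74, 0.10 and −0.16 at 12 weeks, and −0.87, −1.05 and −0.93 at 30 weeks. Most like the 3′ H2-K1 probe A_51_P198434 were Zfp217 (0.97), Nop56 (0.97), Ust (0.97), Rpl36a (0.96) and Prr14 (0.96). That 3′ probe itself followed the other 3′ probe, which it overlaps in position, at r = 0.94. It ran against the coding probes at r = −0.85 and −0.66 (8 arrays that share slides and may share pools, a description).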

How the data were processed

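Per the file headers, the deposited scanner files hold mean spot and median background intensity, processed signals (intensity) and a log10 ratio of red over green, written by Agilent Feature Extraction 9.5.3.1 (4 weeks) or 10.2.1.3. The deposited series table equals log2(red/green) of the processed signals; its medians run from −0.21 to 0.15, so it is not centred. With limma 3.58.1 in R 4.3.3, intensities were corrected with normexp (offset 50), then normalised by loess in each array (weight 0 for control spots), and the unflagged spots of each probe averaged. Channel signals were scaled with Aquantile. A probe was kept if, in some age, 1 of its channels was well above background on every array (27464 probes). No spot was saturated, 36 values were missing among the tested probes, and the number of arrays limits the precision.

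The model gave each age its own mean over the 8 arrays (residual degrees of freedom 5, prior 3.71), with 6 contrasts, two-sided, adjusted over all tested probes within a contrast. P-values measure the spread between knockout mice against pools that may be shared. The members and lists were chosen with earlier results of these data known, so they are no independent evidence. Named were every member with every probe, Deaf1, up to 4 called genes of smallest p per list and contrast, and the 5 genes most like H2-K1 and Tap1; Xist and Ddx3y were chosen after their values were seen. From the contrasts between ages and over all ages only the genes that bear on the members are printed. Cd1d1, Creb1 and Nfyb were called higher at 4 weeks and are printed without a ratio. Calr was lower at 12 weeks (−0.32 ± 0.07, limma adjusted p = 0.0493), a call lost in 7 of the 8 fits with 1 array less. Names came from the accession through RefSeq for 24375 probes, from the symbol for 6301 and from synonyms for 2426; the other 8072 are named as in the files. Probe positions are those of the files (mm8). The fit was tested on simulated data with known changes. Replicate numbers did not pair the arrays: same-numbered arrays deviated together at r from −0.08 to 0.23. Alternatives covered the source of the values, background, normalization, filter, probe choice, slide, GC content, replicate block and arrays left out.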

Additional observations from a re-analysis of the deposited data

Results flagged for a closer look

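In 3 cases the ratio of a member differed between ages by a test of the difference itself, the contrast of the fit (limma, adjusted over all tested probes). The ratio of H2-K1 A_52_P50496, a coding probe, was lower at 30 than at 12 weeks by −1.54 on the log2 scale. That of the H2-Q9 probe was lower by −1.35 between the same ages. That of B2m A_51_P129012 was lower at 12 than at 4 weeks by −0.638. No outlier test was run on groups of 2 or 3 arrays.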

How the results depend on the processing

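There were 22 alternatives, of which each value was recomputed under those that could give it: the slide as a fixed block covered 3 of the 32 called values, the brightest probe 19 and only the arrays compared 21. Of 120 member values (20 probes in 6 contrasts) 32 were called, and these kept their sign under all alternatives except centring each array on its median without loess, under which 14 of the 32 changed sign and 10 kept their call. That setting moved the median of all probes to 0.39, 0.34 and 0.11 at 4, 12 and 30 weeks and to 0.27 for the mean of the ages. At 4 weeks it gave 0.619, 0.811, 0.621, 0.672, 0.609, 0.285, 0.711 and 0.789 for H2-K1 A_51_P190499, H2-K1 A_51_P198434, H2-D1 A_51_P496996, H2-Q7, H2-Q10 A_51_P496997, H2-Q10 A_52_P428354, H2-T23 and Tapbp A_51_P304500. At 12 weeks it gave 0.617, 0.918, 0.876, 0.899, 0.765, 0.654, 0.53 and 0.669 for H2-K1 A_52_P474242, H2-D1 A_51_P496996, H2-Q7, H2-Q10 A_51_P496997, H2-T23, B2m A_52_P105594, Tap2 and Tapbp A_51_P304500. At 30 weeks it gave 0.214, 0.162, 0.107 and 0.0321 for H2-D1 A_51_P496996, H2-Q7, H2-Q10 A_51_P496997 and Tapbp A_51_P304500. For the mean of the ages it gave 0.846, 0.345, 0.711, 0.584, 0.691, 0.57, 0.538, 0.17, 0.604, 0.621, 0.067, 0.497 and 0.308 for H2-K1 A_51_P190499, A_52_P474242 and A_52_P50496, H2-D1 A_51_P496996 and A_52_P313279, H2-Q7, H2-Q10 A_51_P496997 and A_52_P428354, H2-T23, B2m A_52_P105594, Tap2, Tapbp A_51_P304500 and A_52_P684830. Among the other genes it turned Calr at 12 weeks (0.403), Cd8b1 at 12 (0.34) and 4 weeks (0.348), and Stat2 (0.422) and Klrb1c (0.0292) at 4 weeks.

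The count of member probes called moved as follows; the cause was not tested. Under centring on the median it was 13, 16 and 7 at 4, 12 and 30 weeks and 0 in both differences between ages, where 47.8%, 50.7%, 26.1%, 0.295% and 0.0291% of all probes were called. For 30 minus 12 weeks it was also 0 with the scanner's log ratio, the authors' value table, the slide as a fixed block and only the arrays compared, which called at most 0.00728% of all probes. With the slide as a random block (consensus correlation −0.26) it was 11 at 12 weeks, 3 for 12 minus 4 and 6 for 30 minus 12 weeks, where 49.5%, 22.5% and 12.6% of all probes were called; with it as a fixed block it was 0 for 12 minus 4 weeks (2.7% of all probes). With the brightest probe per gene 1, 8 and 1 of 10 were called at 4 weeks, at 30 weeks and for 30 minus 12 weeks (22.7%, 39.1% and 0.777% of all genes). With only the arrays compared it was 7 at 4 weeks and 0 for 12 minus 4 weeks (23.2% and 0.816%). Without both replicate 2 arrays of 12 and 30 weeks it was 1 at 12 weeks, 0 for 12 minus 4 and 1 for 30 minus 12 weeks (10.9%, 8.7% and 1.61%). With the replicate block it was 2 at 4 weeks and 0 in both differences between ages (12.5%, 1.7% and 0.0291%). Whether the numbers pair the arrays was not settled. The replicate block together with the GC trend removed gave 6 for the mean of the ages and 0 in both differences (32.4%, 1.53% and 0.0291%). With the GC trend removed alone, 10 were called at 30 weeks, all lower (19.9% of all probes lower). Of the values not called, 42 gained a call under some alternative. Leaving out 1 array at a time gave 0 to 5 at 4 weeks, 0 to 2 at 12 weeks, 11 to 16 at 30 weeks, 9 to 12 for the mean, 0 to 1 for 12 minus 4 and 0 to 11 for 30 minus 12 weeks.

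The difference of heavy chains minus loading genes moved at 4 weeks to 0.276 with the scanner's log ratio and with the authors' value table, at 12 and 30 weeks to 0.434 and 0.46 with centring, and at 30 weeks to 0.421 with the brightest probe and 0.478 with a median over genes. Leaving out 1 array gave −0.0286 to 0.223 at 4 weeks, 0.115 to 0.311 at 12 weeks and 0.184 to 0.286 at 30 weeks. Signal over background limited only the H2-Q10 probes A_51_P230267 and A_51_P230269.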
